A study of Mus musculus with 11 samples.

Results

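Annexins are a family of proteins that bind acidic phospholipids of the cell membrane when calcium rises. In skeletal muscle they gather at tears of the sarcolemma, where they cluster vesicles, cap the wound and shed damaged membrane, and several of them do so with S100 proteins or with the calcium sensor encoded by Pdcd6. The members described here were the 9 mouse annexin genes Anxa1, Anxa2, Anxa3, Anxa4, Anxa5, Anxa6, Anxa7, Anxa8 and Anxa11, found by gene symbol on MouseRef-8 v2.0 BeadChips. They were measured by 12 of 25697 probes, which stood for 16593 gene symbols. Anxa3, Anxa8 and Anxa11 had 2 probes each, and the other members had 1.

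RNA came from C2C12 cells, an established line of mouse myoblasts that fuse into multinucleated myotubes when serum is lowered. Day 6 samples were cultures kept in differentiation medium with horse serum (n = 5), and Day 0 samples were proliferating cultures in growth medium with fetal bovine serum (n = 5). The labels named no transgene or deletion, and the 5 cultures of each day were described as independent experiments of a single cell line. In a whole culture, fewer cells of a kind and less RNA per cell cannot be told apart, and the share of fused cells was not given.

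Median signals of the 11 arrays were 57.2 to 64.3 at Day 6 and 56.6 to 62.7 at Day 0. The 2 arrays of Day 0 replicate 5 held the same sample and were averaged. All 6 differentiated muscle markers on the array rose (Mymk, Tnnt3, Acta1, Ckm, Myog and Mef2c), with a summed signal between 27316 and 33979 at Day 6 and between 512 and 6731 at Day 0. The highest Day 0 sum belonged to replicate 5, in which 5 of these 6 markers exceeded the mean of the remaining Day 0 cultures (median difference of the 6, 2.78 on the log2 scale). The 3 myoblast markers summed to between 9292 and 13197 at Day 6, against 3230 to 6543 at Day 0. Of these Myod1 (0.96) and Des (1.51) were detected on both days and called higher, whereas Myf5 was not detected in any sample. None of 4 macrophage and leukocyte markers was detected in 3 samples of a day, and their summed signals lay between 182 and 203 at Day 6 and between 181 and 188 at Day 0. The sums of 5 endothelial markers were between 137 and 156 at Day 6 and between 129 and 150 at Day 0, with Cdh5, Emcn and Pecam1 never detected. Epithelial markers (4 genes) summed to between 111 and 136 at Day 6, against 123 to 170 at Day 0, and adipocyte markers (5 genes) to between 115 and 135 at Day 6, against 118 to 132 at Day 0, with Krt19 called lower (-0.60) and Krt18, Adipoq, Cidec, Fabp4 and Plin1 never detected. The 6 fibroblast markers summed to between 267 and 917 at Day 6, against 173 to 431 at Day 0, with Pdgfra called higher and Tcf21 and Thy1 never detected, and their part in the results was not tested.

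After background correction and quantile normalization, values were log2 signals, and probes entered the test if 3 or more samples of 1 day detected them. Of the 9 annexin genes 8 could be tested. Anxa11 and Anxa8 were higher at Day 6, Anxa1 was lower, and 5 (Anxa2, Anxa3, Anxa4, Anxa5 and Anxa6) did not pass an adjusted p of 0.05 in limma. Among all 8659 genes tested, 45.3% were called, with 21.1% higher and 24.2% lower, so that 3 calls among 8 annexins were near the background. Values of the days did not overlap for 1 of the 8, Anxa11, against 32.5% of all genes. The median change of the 8 annexins, as Day 6 minus Day 0, was -0.21 on the log2 scale, beside -0.03 for all genes, and their median absolute change was 0.52 beside 0.43. The study's methods name a Z-ratio threshold without a formula. Here a Z-ratio was computed as the difference of array-wise Z-scores between the days, in units of its SD over all probes. It reached 1 for 2 annexin probes (6.99% of all probes) and -1 or less for 1 (7.98% of all probes). These were the first probes of Anxa11 (2.57) and Anxa8 (1.64) and the probe of Anxa1 (-1.05).

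**Figure D1:**
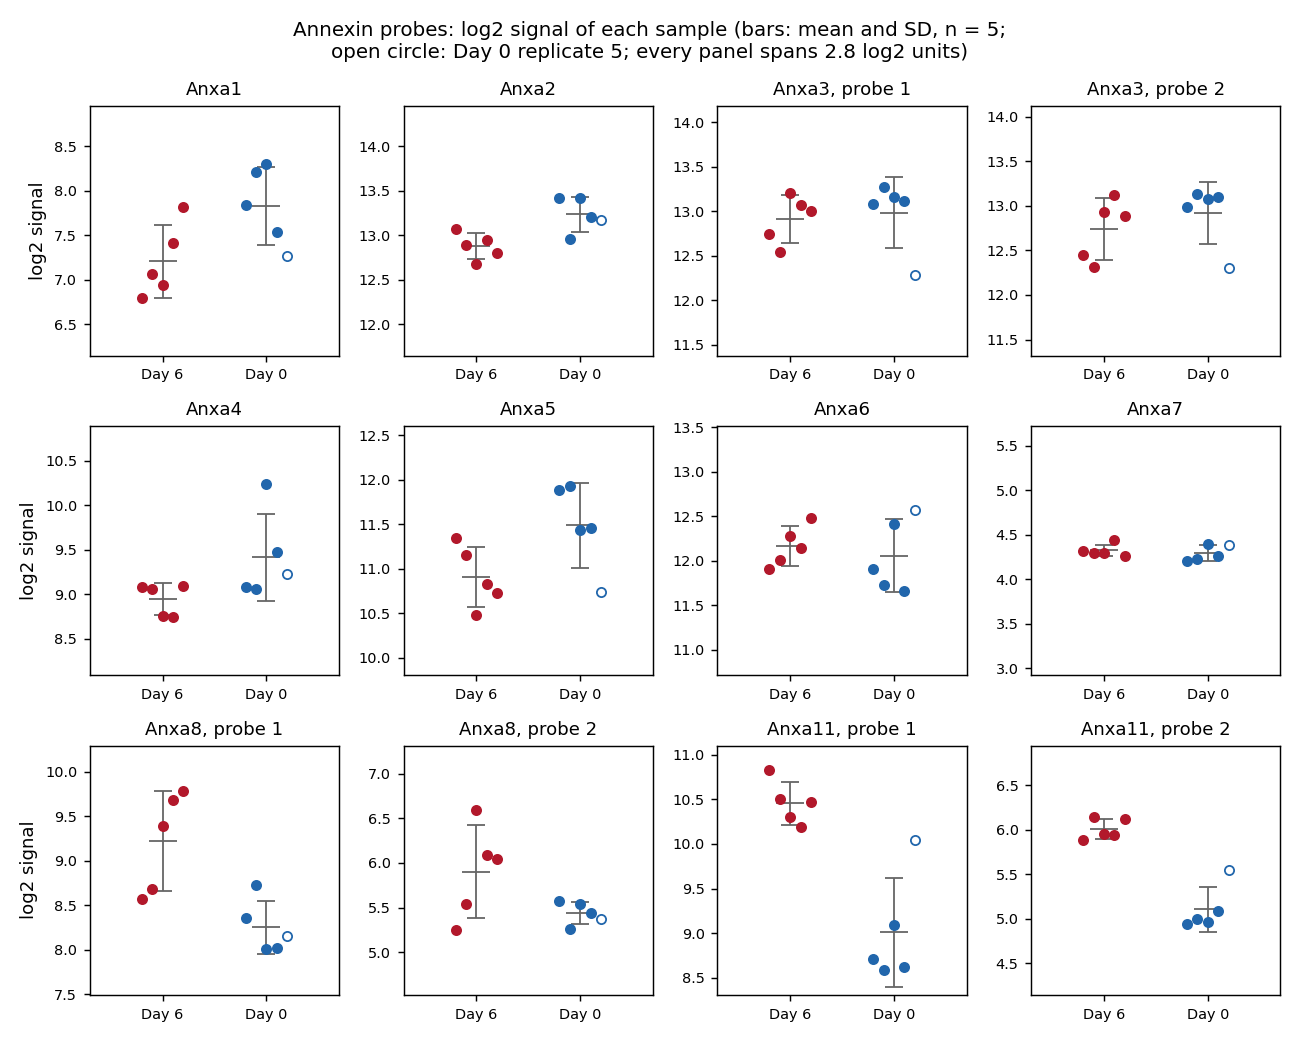
Log2 signal (vertical axis) of the 12 annexin probes in each Day 6 (red) and Day 0 (blue) sample, with the mean and SD of 5 samples. Day 0 replicate 5, drawn open, lay next to the Day 6 samples for Anxa11, and the points of the days overlapped for every other annexin gene.

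**Figure D2:**
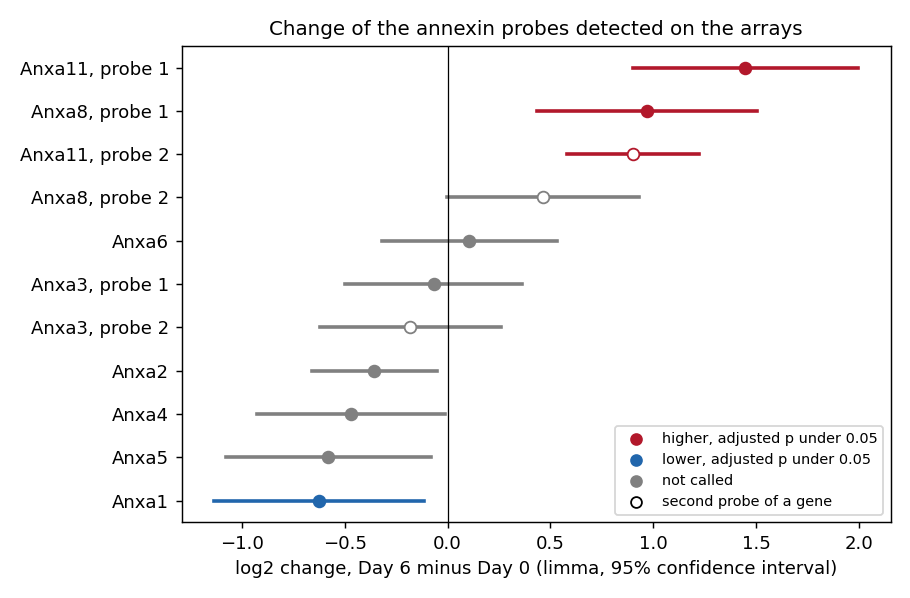
Change in log2 signal, Day 6 minus Day 0, with its 95% confidence interval from limma, for the 11 annexin probes that were detected. Intervals of both probes of Anxa11 and the first probe of Anxa8 lay to the right of 0, at changes up to 1.45. Those of Anxa1 (-0.63), Anxa2, Anxa4 and Anxa5 lay to its left, and of these only Anxa1 was called.

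The RefSeq promoter windows of the 3 annexins that passed the test are given in GRCm38.p6, as the 250 bases before an annotated start, to show which short elements known from muscle promoters they hold. Capitals mark CANNTG (the E-box letters read by myogenic basic helix-loop-helix factors), CATTCC (the letters read by TEAD factors) and TATAAA, each searched on both strands. No motif overlapped another in these windows.
Anxa11, chr14:25841905-25842154, plus strand: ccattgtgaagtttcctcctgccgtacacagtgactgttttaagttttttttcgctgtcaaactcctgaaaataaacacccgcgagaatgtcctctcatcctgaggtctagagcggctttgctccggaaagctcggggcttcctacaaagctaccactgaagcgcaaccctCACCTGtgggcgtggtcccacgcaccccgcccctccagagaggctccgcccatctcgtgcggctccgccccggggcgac
Anxa8, chr14:34085729-34085978, plus strand: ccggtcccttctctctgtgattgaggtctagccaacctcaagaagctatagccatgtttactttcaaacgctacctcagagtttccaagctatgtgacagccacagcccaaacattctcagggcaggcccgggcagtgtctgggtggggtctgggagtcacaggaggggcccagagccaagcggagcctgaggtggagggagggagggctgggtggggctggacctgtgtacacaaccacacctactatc
Anxa1, chr19:20390672-20390921, minus strand: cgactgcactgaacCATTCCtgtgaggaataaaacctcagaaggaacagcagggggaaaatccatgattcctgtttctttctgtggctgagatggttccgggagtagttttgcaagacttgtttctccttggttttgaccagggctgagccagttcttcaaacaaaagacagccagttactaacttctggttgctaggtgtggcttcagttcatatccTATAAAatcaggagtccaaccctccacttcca

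The Anxa11 window held 1 E-box (CACCTG, beginning 79 bases before the start), and its last 28 bases lay inside the span of the gene. The Anxa8 window held none of the 3 motifs. The Anxa1 window held CATTCC beginning 236 bases and TATAAA beginning 32 bases before the start. CANNTG was present in 66.2% of 32851 promoter windows of the same length, CATTCC in 12.6% and TATAAA in 12.4%. Windows were listed for 7 of the 9 members (9 windows), of which 5 held an E-box, among them a window of Anxa4 with CAGCTG, a form present in 13% of all promoters. The MEF2 motif and the CArG box of SRF, which stood in 1.69% and 1.47% of all promoters, matched none of the 9 windows. A match describes letters in a window and not a bound site.

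Anxa11 encodes an annexin with a long N-terminal tail that binds the calcium sensor of Pdcd6 and calcyclin (S100a6) and tethers RNA granules to lysosomes. The gene lies on chromosome 14 (25842127 to 25886804). Its log2 signal was 10.83, 10.50, 10.30, 10.19 and 10.47 in Day 6 replicates 1 to 5, against 8.71, 8.58, 9.09, 8.62 and 10.04 in Day 0 replicates 1 to 5. Every Day 6 sample stood above every Day 0 sample, and the highest Day 0 value was that of replicate 5. Anxa11 rose by 1.45 ± 0.25 (log2, SE), or 2.73-fold, with a 95% confidence interval of 0.90 to 2.00, a limma adjusted p of 0.00043 and an exact two-sided permutation p of 0.00794, the smallest that 5 against 5 samples can give.

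The second Anxa11 probe gave log2 signals of 5.89, 6.15, 5.95, 5.94 and 6.12 at Day 6, against 4.94, 4.99, 4.96, 5.08 and 5.54 at Day 0. The days again did not overlap, and Day 0 replicate 5 was again the highest of its day. The rise was 0.90 ± 0.15 (log2, SE; adjusted p = 0.00026 over 12753 probes; exact permutation p = 0.00794). Of the annexin probes, second probes included, 3 were called higher and 1 lower, where 44.4% of all probes were called, 20.5% higher and 23.8% lower. Without Day 0 replicate 5 the rise of Anxa11 was 1.71 by the first probe and 1.01 by the second.

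Anxa7, which lies on the same chromosome (20455261 to 20480133) and encodes synexin, the annexin that promotes fusion of granules with membranes, was not detected in any sample. Its log2 signals were 4.32 ± 0.07 at Day 6 and 4.29 ± 0.09 at Day 0 (SD, n = 5 each), with detection p-values of 0.244 to 0.772 and 0.321 to 0.946. It was therefore not tested, and the probe sets no fold for the gene.

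Among the known partners of Anxa11 and Anxa7, Sri was called. Sri encodes sorcin, a calcium-binding protein that binds Anxa7 and, in heart, the ryanodine receptor. Its log2 signals were 7.61, 7.54, 6.64, 7.84 and 6.70 at Day 6 and 9.07, 8.91, 9.88, 9.44 and 8.18 at Day 0, without overlap. Sri, which had 4 probes and was read from the kept probe of highest mean, fell by 1.83 ± 0.31 on the log2 scale (limma adjusted p = 0.00035). The probe of Pdcd6 was not detected in any sample, and Pdcd6ip, which encodes ALIX, the adaptor that links Pdcd6 to the ESCRT machinery of membrane scission, changed by -0.42 and was not called (adjusted p = 0.0764). S100a6 changed by -0.33 (adjusted p = 0.171). Of the 16 tested genes of the ESCRT and ALIX list, 3 rose (18.8%, against 21.1% of all genes) and 2 fell (12.5%, against 24.2%), with a median change of 0.04. Chmp1b (0.81) and Chmp7 (0.54), subunits or nucleators of the ESCRT-III filament, and Pef1 (0.66, adjusted p = 0.0489), the dimer partner of the Pdcd6 protein, were the members that rose, and Tsg101 (-0.44), a subunit of ESCRT-I, fell with Sri. Without any one of Day 6 replicates 1, 2, 3 or 5 or Day 0 replicates 4 or 5, a single gene of the list was called lower, and without any one of Day 6 replicates 3, 4 or 5 or Day 0 replicates 1, 2 or 4, 2 were called higher. The list also held Alg2, a mannosyltransferase that entered by its name alone and was not called.

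Anxa8 was first known as a vascular anticoagulant and associates with late endosomes. It lies at 34085979 to 34100571 of chromosome 14. Its first probe gave log2 signals of 8.57, 8.68, 9.39, 9.68 and 9.78 in Day 6 replicates 1 to 5 and 8.36, 8.73, 8.01, 8.02 and 8.15 in Day 0 replicates 1 to 5. Day 6 replicates 1 and 2 lay below Day 0 replicate 2, while the other Day 6 samples lay above all Day 0 samples. Anxa8 rose by 0.97 ± 0.25 (log2, SE; 95% confidence interval 0.43 to 1.50), a 1.96-fold difference, with a limma adjusted p of 0.0059 and an exact permutation p of 0.0238.

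The second Anxa8 probe was dim, with log2 signals of 5.25, 5.54, 6.59, 6.09 and 6.04 at Day 6 and 5.57, 5.26, 5.54, 5.44 and 5.38 at Day 0. Day 6 replicates 3, 4 and 5 were again the high ones. The difference of 0.47 ± 0.22 was not called (adjusted p = 0.0976 over all probes tested, exact permutation p = 0.119). Without Day 6 replicate 1, a low sample on both probes, it was 0.63 and was called (adjusted p = 0.0218). Of 23 alternatives this was the only 1 in which the second probe was called, and its adjusted p in limma reached 0.246.

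Anxa3 and Anxa4 were not called. Anxa3, known for promoting angiogenesis and cell migration, had log2 signals of 12.74, 12.54, 13.20, 13.07 and 13.01 at Day 6 and 13.08, 13.27, 13.16, 13.11 and 12.28 at Day 0. Replicate 5 was the lowest of the Day 0 samples, and the other Day 0 values lay between 13.08 and 13.27. The change was -0.07 (95% confidence interval -0.50 to 0.36, limma adjusted p = 0.816), and that of the second probe was -0.18 (adjusted p = 0.507).

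Anxa4, an annexin of epithelial cells that self-assembles on membranes, had log2 signals of 9.08, 9.07, 8.76, 8.75 and 9.09 at Day 6 and 9.09, 9.06, 10.24, 9.47 and 9.23 at Day 0. The spread was larger at Day 0 (SD 0.49) than at Day 6 (SD 0.18), with Day 0 replicate 3 the highest. The change of -0.47 (95% confidence interval -0.93 to -0.01) had an adjusted p of 0.0884 in limma and an exact permutation p of 0.0635.

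Anxa1 encodes an annexin that recruits vesicles to membrane wounds, inhibits cytosolic phospholipase A2 activity and acts outside the cell as an agonist of formyl peptide receptors. It lies on chromosome 19 (20373434 to 20390671). Its log2 signals were 6.79, 7.06, 6.94, 7.41 and 7.82 in Day 6 replicates 1 to 5 and 7.84, 8.21, 8.30, 7.53 and 7.27 in Day 0 replicates 1 to 5. Day 6 replicate 5 lay above Day 0 replicates 4 and 5, and Day 6 replicate 4 above Day 0 replicate 5. Anxa1 fell by 0.63 ± 0.24 (log2, SE; 95% confidence interval of the change -1.14 to -0.12), close to the threshold in limma (adjusted p = 0.0449) and with an exact permutation p of 0.0556. The call was lost when any of Day 6 replicates 1, 2, 3 or 4 or Day 0 replicates 1, 2 or 3 was left out, with an adjusted p up to 0.108, and with the replicate number as a block (adjusted p = 0.0902). Without Day 0 replicate 5 the fall was 0.77 (adjusted p = 0.0128).

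Anxa2 binds S100a10 in a tetramer that holds plasminogen and tissue plasminogen activator at the cell surface, and it joins the dysferlin complex in muscle. Its log2 signals were 13.07, 12.90, 12.68, 12.95 and 12.81 at Day 6 and 13.42, 12.96, 13.42, 13.20 and 13.18 at Day 0. Day 6 replicate 1 was the only Day 6 sample above a Day 0 sample, replicate 2. The change of -0.36 ± 0.14 (95% confidence interval -0.66 to -0.05) was not called in limma (adjusted p = 0.0540), and the exact permutation p was 0.0159. It was called without Day 0 replicate 2 (adjusted p = 0.0345) or without Day 0 replicate 5 (adjusted p = 0.0438).

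Among the S100 proteins, the calcium-binding partners of several annexins, 10 of 16 on the array could be tested, and 1 rose (10%, against 21.1% of all genes) while 4 fell (40%, against 24.2%), with a median change of -0.32, or -0.24 with genes undetected on a whole day set to their bound. S100a10, the partner of Anxa2, had log2 signals of 8.91, 8.74, 7.70, 8.49 and 8.65 at Day 6 and 9.47, 9.97, 10.001, 9.51 and 9.27 at Day 0, without overlap. It fell by 1.14 ± 0.23 on the log2 scale (limma adjusted p = 0.0011). S100a11, which binds the N-terminal tail of Anxa1, gave 12.28, 12.07, 12.02, 12.49 and 12.13 at Day 6 and 13.10, 12.97, 13.43, 13.13 and 13.79 at Day 0. It fell by 1.09 ± 0.17 (adjusted p = 0.00020), again without overlap. S100a4, linked to motility, fell by 0.67, and S100a3 was not detected on any Day 6 array and was at least 2.44-fold lower. The list also held S100pbp, which encodes a binding protein of an S100 protein and was not called. The member that rose was S100a1, a regulator of calcium handling in striated muscle, with a change of 1.23. A bound of this kind sets the mean of the detected day against, for each array of the other day, the higher of its lowest detected signal and the probe's own signal.

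The plasminogen system, in which the tetramer of Anxa2 and S100a10 acts, had 4 tested genes, of which 3 fell (24.2% of all genes did). The number was 2 without any one of Day 6 replicates 2 or 3 or Day 0 replicates 3 or 5, and 1 when detection in all 10 samples was required. Plaur, the receptor of urokinase, had log2 signals of 4.69, 4.58, 4.55, 4.33 and 4.37 at Day 6 and 7.63, 7.82, 6.48, 6.63 and 7.87 at Day 0. It was detected in 1 of 5 Day 6 samples, and it fell by 2.78 ± 0.26 (limma adjusted p = 1.98e-06) to signals mostly at background, with no overlap of the days. Plau, urokinase itself, fell by 0.86, and Serpinb2, an inhibitor of urokinase, was at least 2.53-fold lower. Plat, tissue plasminogen activator, was not detected in any sample.

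Genes of eicosanoid and formyl peptide signalling, where Anxa1 acts, gave 3 rises (30%, against 21.1% of all genes) and no fall among 10 tested, with a median change of 0.29, or 0.25 with Pla2g2e at its bound. Without Day 0 replicate 5 there were 5 rises and 1 fall, and without Day 0 replicate 3 there was 1 fall. Ptgis, prostacyclin synthase, rose by 1.73, Tsc22d3, the glucocorticoid-induced leucine zipper, by 1.24, and Pla2g2e, a secreted phospholipase, was at least 1.2-fold higher. The receptor gene Fpr2 and the phospholipase gene Pla2g4a were not detected in any sample.

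Anxa5 binds phosphatidylserine, forms lattices on torn membrane and is the reagent used to stain dying cells. Its log2 signals were 11.34, 11.15, 10.49, 10.83 and 10.73 at Day 6 and 11.89, 11.92, 11.43, 11.46 and 10.75 at Day 0. Day 0 replicates 1 to 4 lay above all Day 6 samples, and replicate 5 lay among them. The change of -0.58 ± 0.23 (95% confidence interval -1.08 to -0.08) was not called in limma (adjusted p = 0.0558), and the exact permutation p was 0.0476. Without Day 0 replicate 5 the change was -0.77, with an adjusted p of 0.0050, and it was also called without Day 6 replicate 1 (-0.69, adjusted p = 0.0348).

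Anxa6, the largest annexin, forms the repair cap at sarcolemmal wounds and modifies muscular dystrophy in mice. Its log2 signals were 11.91, 12.005, 12.27, 12.14 and 12.48 at Day 6 and 11.91, 11.73, 12.41, 11.66 and 12.57 at Day 0. The range of Day 0 enclosed every Day 6 sample. The change was 0.11 (95% confidence interval -0.32 to 0.53, limma adjusted p = 0.702), and with equal array medians in place of quantile normalization it was -0.030.

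The membrane repair list holds genes linked to the process in which Anxa1, Anxa2, Anxa5 and Anxa6 act at the wound. Of its 22 tested genes 11 were called higher (50%, against 21.1% of all genes) and 2 lower (9.09%, against 24.2%), with a median change of 0.50. Dysf, Capn3 and Cav3 passed the detection filter only through Day 6, which favours a call as higher. When detection in all 10 samples was required, 7 were called higher and 2 lower, among fewer tested genes. Trim72, which encodes the muscle protein MG53 that nucleates repair vesicles, had log2 signals of 11.22, 10.88, 11.23, 10.80 and 10.59 at Day 6 and 4.67, 4.59, 6.11, 5.09 and 10.65 at Day 0. Day 0 replicate 5 was at the Day 6 level and the other Day 0 samples were far below it. Trim72 rose by 4.72 ± 0.89 (limma adjusted p = 0.00074). Dysf, dysferlin, a calcium-sensing membrane protein of repair, gave 6.41, 6.64, 6.20, 6.58 and 6.81 at Day 6 and 4.49, 4.35, 4.48, 4.28 and 5.41 at Day 0, and rose by 1.93. Dysf was detected in 1 of 5 Day 0 samples, replicate 5, so that the change is against signals mostly at background. The same holds for Capn3, the muscle calpain, which rose by 1.51 and was detected on 1 Day 0 array. Cavin4, a coat protein of muscle caveolae, rose by 3.22, and Cav3, muscle caveolin, was at least 3.84-fold higher. The 2 that fell were Ehd1 (-0.84), an ATPase of membrane recycling, and Capn2 (-0.67), a ubiquitous calpain. Ahnak, a large partner of the Anxa2 and S100a10 tetramer, changed by 0.27 and was not called (adjusted p = 0.322).

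Phosphatidylserine, the lipid that annexins bind, is exposed by scramblases, returned by flippases and read by receptors on other cells. Of 13 tested genes of this kind 5 rose and 5 fell (38.5% each, against 21.1% and 24.2% of all genes), with a median change of -0.13. Elmo1 and Gas6 passed the detection filter only through Day 6, which favours a call as higher. When detection in all 10 samples was required, 3 rose and 5 fell, among fewer tested genes. Among those that rose most were Tmem30a (1.45), the subunit that flippases need, Plscr4 (1.27), of the phospholipid scramblase family, and Elmo1 (1.55), an engulfment adaptor that had 14 probes and was detected in 1 of 5 Day 0 samples. Mertk and Axl, receptor kinases that bind phosphatidylserine through Gas6, fell, with changes of -1.55 for Mertk and -1.15 for Axl, and Plscr1 fell by 1.18. Gas6 itself rose by 0.81 (adjusted p = 0.0096) and was detected in 1 of 5 Day 0 samples. Log2 signals of Mertk lay between 5.26 and 5.40 at Day 6, against 6.68 to 7.02 at Day 0. Those of Axl lay between 11.10 and 11.32 at Day 6, against 12.24 to 12.50 at Day 0, so that neither gene overlapped. The scramblase gene Ano6 was not detected in any sample. Ano5, mutated in a limb-girdle muscular dystrophy of humans, was detected in 2 Day 6 samples and no Day 0 sample and was not tested. By single arrays it was detected on 3, among them an array of Day 0 replicate 5, whose 2 arrays did not pass on average.

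**Figure D3:**
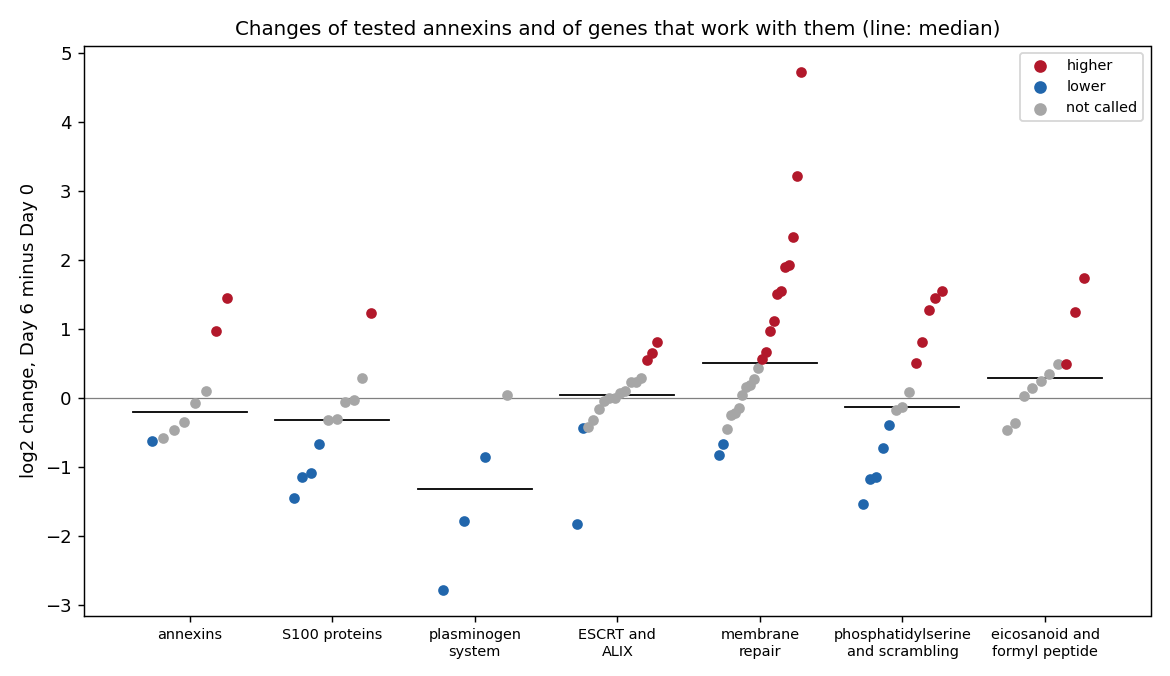
Change in log2 signal, Day 6 minus Day 0 (vertical axis), of the 8 annexins tested and of the tested genes of 6 partner lists, each point a gene and each line the median of a list. Points are red for genes called higher and blue for genes called lower, and the median was 0.50 for membrane repair and -0.32 for S100 proteins, beside -0.21 for annexins.

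Changes of annexins were then compared with each other, by testing the difference of 2 annexins in each sample between the days with an exact two-sided permutation test. Of 28 pairs 5 passed after Benjamini-Hochberg adjustment over the 28, each with an adjusted p of 0.0444. Their exact p was 0.00794, the smallest that 5 against 5 samples can give, and 5 pairs had to reach it for any to pass. The largest difference, 2.07 between Anxa11 and Anxa1, did not pass (adjusted p = 0.0667). Anxa11 changed more than Anxa6 by 1.34 on the log2 scale, more than Anxa2 by 1.81, more than Anxa4 by 1.92 and more than Anxa5 by 2.03. Anxa8 changed more than Anxa1 by 1.60. In the order of changes (Anxa11, Anxa8, Anxa6, Anxa3, Anxa2, Anxa4, Anxa5, Anxa1) none of 7 neighbouring pairs passed, and Anxa11 and Anxa8 themselves differed by 0.48 (adjusted p = 0.466). No pair passed when both samples carrying the label E4 (Day 6 replicate 5 and Day 0 replicate 5) were left out, a design of 4 against 4 whose smallest exact p is 0.0286, so that 17 of the 28 pairs would have had to reach it. None passed either when any Day 6 replicate was left out, and 9 passed without Day 0 replicate 2 or 5.

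The descriptions of the samples carry a mark, E1, E2, E3 or E4, which is not explained. Each mark holds samples of both days, so that the difference could be taken within each. Anxa11 was higher at Day 6 within every mark, by 2.18 in E1, 1.41 in E2, 1.63 in E3 and 0.42 in E4. Anxa8 was higher by 0.03, 0.68, 1.52 and 1.63 in E1 to E4, and Anxa2 differed by -0.12, -0.53, -0.39 and -0.37. Differences of Anxa1 were -1.23, -1.24 and -0.35 in E1, E2 and E3, and 0.55 in E4, which is the opposite sign. Those of Anxa5 were -0.56, -0.28, -0.80 and -0.01, and those of Anxa4 were 0.01, -1.17, -0.72 and -0.14. With 1 or 2 samples of a day in each mark these differences were not tested. With the mark as a block, Anxa11 (1.48) and Anxa8 (0.94) were called, Anxa1 was not (adjusted p = 0.0784), and Anxa5 was called at -0.45 (adjusted p = 0.0412).

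**Figure D4:**
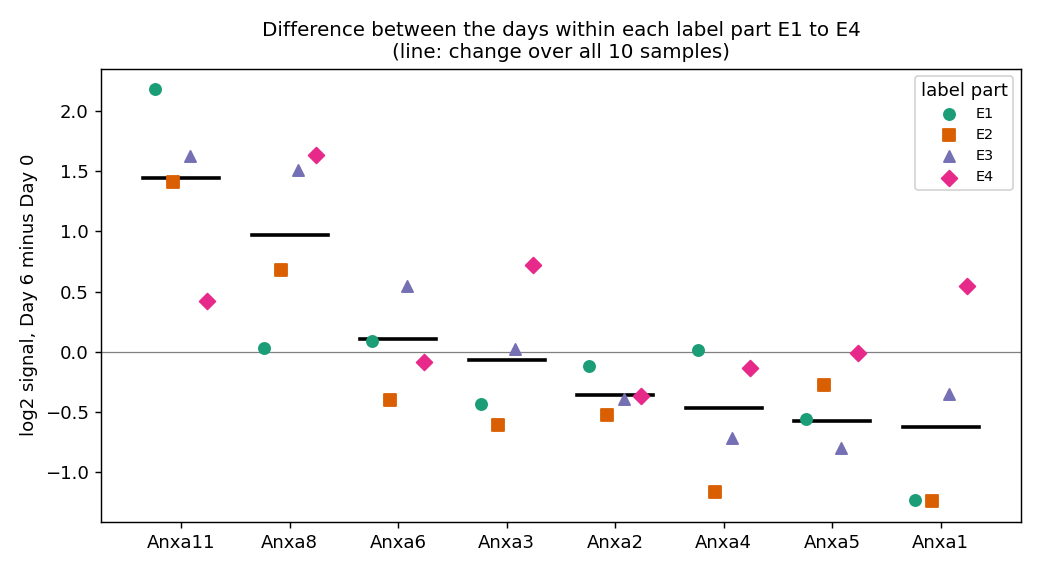
Difference in log2 signal, Day 6 minus Day 0 (vertical axis), within each label mark E1 to E4 for the 8 annexins tested, with the change over all 10 samples as a line. Anxa11 lay above 0 in each mark, between 0.42 and 2.18, and Anxa1 lay at 0.55 in E4 and below 0 in the others.

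Day 0 replicate 5, the Day 0 sample of E4, lay outside the range of the other Day 0 samples for 5 of the 8 annexins tested, below it for Anxa1, Anxa3 and Anxa5 and above it for Anxa6 and Anxa11. Relative to the mean of the other Day 0 samples it was shifted in the direction of the Day 6 mean for 7 of the 8, with Anxa8 the exception at -0.13. The shift was 1.295 for Anxa11, where the Day 6 mean stood 1.71 above the same samples, and -0.93 for Anxa5, where the Day 6 mean stood at -0.77. Its 2 arrays differed by 0.16 for Anxa11 and by at most 0.34 (Anxa2) among the annexin probes. Muscle markers were raised in this sample, and partner genes stood at Day 0 extremes in both directions. Trim72 (10.65) and Dysf (5.41) were the highest of Day 0 and Sri (8.18) and S100a10 (9.27) the lowest, on the side of Day 6. S100a11 (13.79), Plaur (7.87), Plau (10.22), Mertk (7.02) and Ehd1 (7.20), which fell, were the highest of Day 0, away from Day 6. The part of these values in the results was not tested.

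The genes whose log2 signals followed those of Anxa11 most closely across the 10 samples were Ccnd3 (r = 0.979), a D-type cyclin, Kyat1 (r = 0.977), a kynurenine aminotransferase, and Igf2 (r = 0.977), a growth factor of muscle. Those most like Anxa1 were Cnot10 (r = 0.960), a subunit of the deadenylase complex, Thoc5 (r = 0.932), of the mRNA export complex THO, and Dhx9 (r = 0.912), a helicase. These are Pearson correlations over samples that fall into days, given as a description over 8659 genes. With the day means removed, r was 0.940 for Ccnd3 with Anxa11 and 0.944 for Cnot10 with Anxa1. Day 0 replicate 5 lay above all other Day 0 samples for Anxa11 and below them for Anxa1, and r without this sample was not computed. Among the annexins themselves, Anxa11 had r = -0.86 with Anxa3 and 0.64 with Anxa6 after the day means were removed, and Day 0 replicate 5 stood outside its day for all of these.

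Annexins outside the 9 members were Anxa9, Anxa10 and Anxa13. Anxa9, whose calcium-binding sites are degenerate, gave log2 signals of 5.28, 5.19, 5.05, 5.33 and 5.24 at Day 6 and 6.02, 6.00, 6.13, 5.81 and 5.86 at Day 0. The days did not overlap, and Anxa9 fell by 0.75 ± 0.13 (limma adjusted p = 0.00035, exact permutation p = 0.00794). Anxa10 and Anxa13 were not detected in any sample.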

How the data were processed

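RNA of 5 Day 6 and 5 Day 0 cultures was measured on 11 arrays. The authors read signals from the scans in GenomeStudio (version 2011.1), each with a detection p-value. The deposited signal of a probe is an intensity that was neither background-subtracted nor normalized, with 34 the lowest value. The deposited Z-scores are a score per probe, the log signal centred and scaled within its array by the authors, and lay within 0.005 of values computed from the signals.

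Signals were processed with neqc of limma 3.58.1 in R 4.3.3 (package data.table, version 1.17.8), with an offset of 16 and negative controls inferred from the detection p, and put on the log2 scale. Both arrays of Day 0 replicate 5 were then averaged. A probe was kept at a detection p under 0.05 in at least 3 samples of 1 day, which left 12753 probes. Where a gene had several kept probes, the one of highest mean stood for it, and second probes of annexins were read from a fit over all kept probes. Other probes of partner genes (Dysf and Capn2 had 3 each) were not reported singly. Changes were tested by lmFit and eBayes over 8659 genes without covariates, with Benjamini-Hochberg adjusted p under 0.05 called. Single probes and pairs of annexins were also tested by exact two-sided permutation. Steps were tested on simulated data. The number of arrays limits the precision. Motifs were searched in RefSeq promoter windows (GRCm38.p6) with Python 3.11.15, and plots were drawn with matplotlib 3.10.9.

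The members and gene lists were chosen with earlier results of these data known. Named were all annexin probes and, of each partner list, every called gene where 4 or fewer were called in a direction and otherwise the 3 with the largest change, with partners of single annexins listed by name (Dysf and Capn3 among them) and the 3 genes most correlated with the annexins of largest rise and fall. Gas6, Ano5, Ano6, S100pbp, Alg2 and the called cell type markers were named after their values were seen. Alternatives were other background corrections and normalizations, the Z-scores, other detection filters, either array of Day 0 replicate 5, another probe rule, a robust trend, blocks for replicate number and E1 to E4, and samples left out.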

Additional observations from a re-analysis of the deposited data

Results flagged for a closer look

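In 3 of 22 groups (11 annexin probes on 2 days) 1 sample lay far from the other samples of its day by Dixon's criterion, and chance marks about 1 group in 20. All were Day 0 replicate 5, with both probes of Anxa3 among them. The groups share the same samples and are not independent, so the count cannot be set against that rate. The log2 signal of Day 0 replicate 5 was 12.28 for the first Anxa3 probe, where the next Day 0 sample was at 13.08. It was 12.30 for the second, where the next was at 12.99. For the second Anxa11 probe it was 5.54, and the next Day 0 sample was at 5.08. Trim72 in the same sample was at 10.65, against 4.59 to 6.11 in the other Day 0 samples.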

How the results depend on the processing

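Under all 23 alternatives Anxa8 (changes of 0.79 to 1.13), Anxa11 (1.28 to 1.71) and its second probe (0.49 to 1.01) stayed called, with ranges on the log2 scale that leave out the Z-scores. Anxa1 was called under 11 of the 23, Anxa2 under 8, Anxa5 under 6, the second probe of Anxa8 under 1 and Anxa4 under none. The adjusted p ranged from 0.00308 to 0.112 for Anxa1, 0.0236 to 0.270 for Anxa2 and 0.0050 to 0.135 for Anxa5. Anxa1 had an adjusted p of 0.112 without the detection filter. Anxa3 changed sign with the Z-scores (0.011) and, with single samples left out, ranged from -0.24 to 0.025. Anxa6 was -0.030 with equal array medians, a setting under which the median change of all genes was -0.13 and 1155 genes were called higher, against 1825. Annexins called lower numbered 2 with normexp without negative controls, with equal array medians and without both E4 samples, 3 with a robust trend, and 0 to 3 with single samples left out. Pairs of annexins that differed numbered 9 without background correction, with normexp without controls, with the Z-scores and with the first array of Day 0 replicate 5 alone, 0 without both E4 samples (where 17 would have to reach the smallest exact p of 0.0286), and 0 to 9 with single samples left out. When detection was required in all 10 samples, fewer genes were tested. Membrane repair genes called higher then numbered 7, and those of phosphatidylserine exposure and lipid scrambling 3. ESCRT and ALIX genes called higher numbered 0 with equal array medians and 1 with the probe of largest SD. With the replicate block, 1 gene of the ESCRT and ALIX list was lower. Other causes were not tested.

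Samples of the same replicate number did not deviate together (r of -0.24 to 0.19, over 0.1 in 1 of 5 pairs, and 0 of 5 Day 0 samples closest to their own number). With the replicate number as a block, 1710 genes were higher and 1992 lower, Anxa5 was called (adjusted p = 0.0222) and Anxa1 was not (adjusted p = 0.0902). Dim signals limit the second probes of Anxa8 and Anxa11.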
